A study of Mus musculus with 9 samples.

Results

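Chromatin regulator genes encode the enzymes and remodelling proteins that write, remove and read marks on histones and DNA. They were taken here as every ATAC-seq peak whose gene symbol begins as a histone deacetylase (Hdac), lysine demethylase (Kdm), lysine methyltransferase (Kmt2, Setd, Ezh), lysine acetyltransferase (Kat), SWI/SNF-related remodeller (Smarc), chromodomain helicase (Chd), bromodomain protein (Brd), DNA methyltransferase (Dnmt) or TET dioxygenase. This gave 856 peaks of 93 symbols, out of 115727 peaks of 16126 symbols in the table. Of the 856 peaks, 100 were promoter peaks, at the transcription start site (TSS) of 85 symbols, and 756 were internal peaks, in an exon, intron or end of 78 symbols. The rule used the symbols and no measured value. Peaks between genes carry no symbol in the table, so none of them is included, and 4 of the 93 symbols (Chd3os, Dnmt3aos, Setdb2-phf11c and Smarca5-ps) are antisense, readthrough or pseudogene transcripts.

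The libraries were made from naive CD4+ T cells of untreated C57BL/6 mice, enriched by negative selection. There were 3 libraries each from Stat6_KO mice (knockout of Stat6, the transcription factor activated by interleukin-4), from Il21e_KO mice (an allele that the labels call both Il21e KO and IL21KO without saying which DNA it removes) and from WT mice. ATAC-seq counts where a transposase can cut, and so reports open chromatin. The labels give no age or sex and name no separate animal behind each replicate, and p-values here reflect only how far these libraries spread, which may be technical. In a bulk sample, more cells with an open site and a more open site in each cell cannot be told apart.

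As background, acetyltransferases and deacetylases add and remove acetyl groups on histone tails, methyltransferases and demethylases do the same for methyl groups, and bromodomain proteins bind acetylated histones. SWI/SNF and chromodomain remodellers use ATP to move or evict nucleosomes, while DNA methyltransferases and TET enzymes set and oxidise methylation of CpG dinucleotides. In naive CD4+ T cells these proteins keep cytokine genes of other T helper fates closed and permit their opening after activation.

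The promoters of these genes are rich in CpG, as their sequences show. Of the 93 symbols, 71 matched the RefSeq promoter table (build GRCm38.p6, 250 bases before to 50 bases after each start), with 97 windows of 300 bases. The 6 windows below run from the gene whose promoter peak held the most reads to one with no promoter peak. Setd7 and Kdm6a have 2 of the promoter peaks with the most reads, a rank that differs per kb of peak. Tet2 is the window richest in CpG of the 6, and Kdm8 had the smallest p among promoters in Stat6_KO against WT. Smarca1 lay below the filter on low counts, and Tet1 had no promoter peak. In GRCm38.p6 they lie at chr3:51560774-51561073 on the minus strand, chrX:18162325-18162624 on the plus strand, chr3:133544341-133544640 on the minus strand, chr7:125444370-125444669 on the plus strand, chrX:47892564-47892863 on the minus strand and chr10:62887275-62887574 on the minus strand. Capitals mark each CpG.
Setd7: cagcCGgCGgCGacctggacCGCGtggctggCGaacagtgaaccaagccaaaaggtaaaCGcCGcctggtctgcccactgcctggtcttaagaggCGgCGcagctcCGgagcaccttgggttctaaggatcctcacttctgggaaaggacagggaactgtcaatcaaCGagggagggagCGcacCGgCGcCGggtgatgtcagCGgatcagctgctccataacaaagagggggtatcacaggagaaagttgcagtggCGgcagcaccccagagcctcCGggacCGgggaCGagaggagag
Kdm6a: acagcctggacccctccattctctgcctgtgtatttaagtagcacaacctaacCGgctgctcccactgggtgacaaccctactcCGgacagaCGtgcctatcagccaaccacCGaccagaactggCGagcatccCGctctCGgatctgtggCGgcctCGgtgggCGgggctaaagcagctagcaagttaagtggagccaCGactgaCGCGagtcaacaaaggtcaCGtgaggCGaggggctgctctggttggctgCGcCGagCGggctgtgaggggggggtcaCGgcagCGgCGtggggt
Tet2: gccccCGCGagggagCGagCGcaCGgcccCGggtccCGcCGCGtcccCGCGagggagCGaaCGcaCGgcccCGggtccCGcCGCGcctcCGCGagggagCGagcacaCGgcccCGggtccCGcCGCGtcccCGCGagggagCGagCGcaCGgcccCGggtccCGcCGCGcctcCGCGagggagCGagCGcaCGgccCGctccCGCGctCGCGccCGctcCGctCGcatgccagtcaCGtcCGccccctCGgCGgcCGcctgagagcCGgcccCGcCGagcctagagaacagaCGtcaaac
Kdm8: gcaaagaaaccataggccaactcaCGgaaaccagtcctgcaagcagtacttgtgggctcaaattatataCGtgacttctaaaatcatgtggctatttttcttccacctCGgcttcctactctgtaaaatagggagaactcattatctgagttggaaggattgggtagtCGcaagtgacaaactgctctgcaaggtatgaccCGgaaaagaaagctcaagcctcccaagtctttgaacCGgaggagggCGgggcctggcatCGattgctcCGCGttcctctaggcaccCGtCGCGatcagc
Smarca1: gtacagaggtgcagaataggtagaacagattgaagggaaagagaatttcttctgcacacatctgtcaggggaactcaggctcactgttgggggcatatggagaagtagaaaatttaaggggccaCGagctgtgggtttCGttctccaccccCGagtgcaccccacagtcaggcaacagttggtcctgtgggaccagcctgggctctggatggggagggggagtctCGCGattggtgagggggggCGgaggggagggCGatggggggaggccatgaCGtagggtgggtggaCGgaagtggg
Tet1: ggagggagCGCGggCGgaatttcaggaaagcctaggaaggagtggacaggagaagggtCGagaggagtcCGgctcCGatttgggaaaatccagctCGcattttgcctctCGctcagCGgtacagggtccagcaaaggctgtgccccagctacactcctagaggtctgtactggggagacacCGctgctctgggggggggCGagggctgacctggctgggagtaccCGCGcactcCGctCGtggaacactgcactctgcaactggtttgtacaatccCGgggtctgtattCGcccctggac

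The windows above hold 21 CpG for Setd7, 21 for Kdm6a, 57 for Tet2, 13 for Kdm8, 9 for Smarca1 and 17 for Tet1. Over the 97 windows the median was 26 CpG, against 7 in all 32851 windows of the table, and the median GC content was 64.3% against 52.7%. Among 50 genes with a single window, CpG number and the CPM per kb of the strongest promoter peak had a Spearman rho of 0.45 as a description, and these genes share the same libraries. The 16 genes with the highest promoter level per kb had a median of 29.5 CpG, and the 16 with the lowest a median of 16. Motifs were searched on both strands. The GC box GGGCGG stood in 66.0% of the windows, against 35.7% of all windows. CCGGAAG, the core of ETS factor sites, stood in 15.5% against 8.86%, and the NRF1 site (GCGC, any base, TGCGC) in 12.4% against 4.6%. All 3 of these motifs contain CpG themselves, so their shares move with CpG content. The STAT6-type palindrome (TTC, any 4 bases, GAA) was found in 1 window (1.03%), against 6.95% of all windows. The spacing of other STAT proteins (TTC, any 3 bases, GAA) stood in 7.22% against 8.30%. CCAAT stood in 35.1% against 37.4%, and TATAAA in 4.12% against 13.6%. The fixed bases of both STAT patterns and of TATAAA are mostly A or T, so their shares move with GC content too. A match describes these letters in this window and says nothing about binding.

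The libraries held 1049460 to 1802405 reads in peaks, and values are CPM, the reads in a peak scaled to the library's total over listed peaks, where 1 read is worth 0.555 to 0.953 CPM. Il21e_KO library 1 stood apart: it had the fewest reads, 23.5% of its peaks held no read (3.37% to 11.2% in the other libraries), and promoter peaks took 42.7% of its reads (31.6% to 36.4% in the others). Among the chromatin regulator peaks, 204 of 856 held no read in it, against 32 to 117 in the others. At Stat6 itself the promoter peak was open in every genotype (65.2 ± 2.89 CPM in Stat6_KO, 67.4 ± 4.42 in Il21e_KO and 70.7 ± 13.6 in WT, SD, n = 3 each). A peak in Stat6 exon 12 held 5, 3 and 3 reads in Stat6_KO, 5, 15 and 13 in Il21e_KO and 11, 9 and 19 in WT. A peak in Stat6 exon 16 ran the other way, with 41, 33 and 25 reads in Stat6_KO, 2, 11 and 14 in Il21e_KO and 9, 12 and 17 in WT (log2 fold change 1.11 in Stat6_KO against WT, limma adjusted p = 1.00). The 6 peaks at Il21 held 5 reads or fewer in each library and check nothing. Of 14 naive CD4+ T cell marker genes, 14 had a tested promoter peak, with Tcf7 the strongest at 68 CPM and Cd4 the weakest at 5.51 CPM. Among markers of other cells, Cd8b1 reached 35.1 CPM and Cd14 37.7 CPM. Tested promoter peaks stood at 2 of 3 CD8 T cell, 3 of 8 myeloid and 2 of 7 B cell markers (strongest Ebf1 at 12.9 CPM). None of 4 NK or 5 erythroid markers had one. Cd4 lay below Cd8b1, Cd14 and Ebf1, and the purity of the cells was not tested. Summed over the lists, B cell promoters ranged over 35.2 to 37.3 CPM in Stat6_KO, 15.2 to 30.2 in Il21e_KO and 21.0 to 44.5 in WT, and myeloid promoters over 56.3 to 66.5, 61.9 to 74.3 and 62.4 to 81.3 CPM in the same order of genotypes. Their part in the results below was not tested.

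Promoters of chromatin regulator genes were open in naive CD4+ T cells with few exceptions. A filter on low counts left 48287 peaks of the table for testing, among them 92 of the 100 promoter peaks (92% against 81.5% of all promoter peaks) and 217 of the 756 internal peaks (28.7% against 33.9%). These 309 peaks represented 90 symbols, and 83 symbols had a tested promoter peak. The median tested promoter peak held 31.1 CPM, against 26.7 CPM over all tested promoters, and the median tested internal peak 11.9 CPM, against 11.6 CPM over all. Promoter peaks were longer as listed (median 1283.5 bp against 374 bp for internal peaks), and their CPM followed their length (Spearman rho 0.90 over 100 promoter peaks, a description). Per kb of peak the medians were closer, 23.5 CPM at promoters and 19.0 CPM at internal peaks.

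Setd7, which monomethylates histones and other proteins, had the promoter peak with the most reads. It held 61.4, 80.1 and 72.2 CPM in Stat6_KO, 119, 72.5 and 78.2 CPM in Il21e_KO and 93.6, 91.9 and 81.3 CPM in WT. The 3 Stat6_KO libraries were below the 3 WT libraries, and Il21e_KO library 1 was above all others. The peak of Dnmt3a, a de novo DNA methyltransferase, held 78.4, 86.6 and 75.8 CPM in Stat6_KO, 67.7, 78.1 and 69.9 CPM in Il21e_KO and 82.0, 78.6 and 68.4 CPM in WT, and its groups overlapped. Kdm6a, the X-linked demethylase of the polycomb histone mark, held 69.6 ± 7.67 CPM in Stat6_KO, 81.2 ± 14.2 in Il21e_KO and 75.9 ± 6.91 in WT (SD, n = 3 each). Kat2b, an acetyltransferase, stood at 66.8 ± 5.52 CPM in Stat6_KO, 66.1 ± 7.15 in Il21e_KO and 67.0 ± 6.29 in WT, and these 3 means lay within 1 SD of each other. Tet3, a TET dioxygenase, held 61.9, 63.0 and 60.6 CPM in Stat6_KO, 59.1, 61.1 and 61.6 CPM in Il21e_KO and 71.6, 81.7 and 61.3 CPM in WT, where WT library 3 was level with the knockouts. Smarca5, the ATPase of ISWI remodellers, shows how much 1 library can set a mean. It held 51.7, 55.3 and 55.0 CPM in Stat6_KO, 113, 48.5 and 48.3 CPM in Il21e_KO and 62.4, 70.8 and 50.3 CPM in WT. Per kb of peak these genes were close to each other: 33.5 CPM at Smarca5, 31.4 at Kat2b, 30.6 at Setd7 and at Dnmt3a, 30.4 at Tet3 and 27.0 at Kdm6a. The other peaks among the 12 with the most reads were those of Hdac3 (the NCoR-bound deacetylase, 29.1 CPM per kb), Kat6a (the MOZ acetyltransferase, 26.0), Smarcc2 (a SWI/SNF core subunit, 31.5), Kmt2b (a trithorax-type methyltransferase, 29.5), Kdm2b (30.2) and Kmt2e (a SET-domain protein, 19.5).

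**Figure D1:**
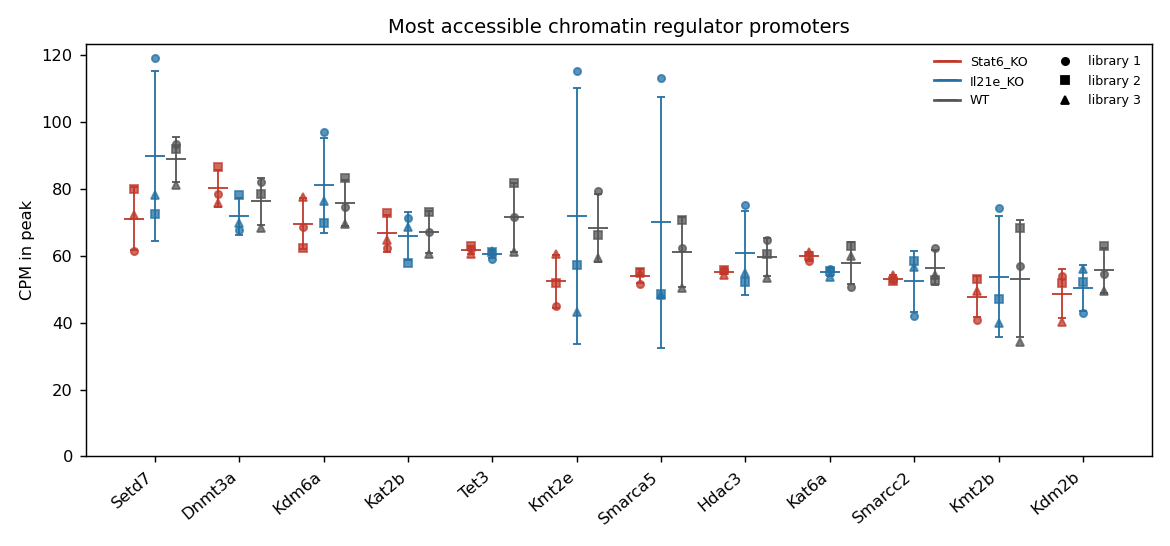
CPM in the promoter peak (y axis) of the 12 chromatin regulator genes with the strongest promoter peak (x axis), per library, with the mean as a bar and the SD as whiskers (n = 3 per genotype). Il21e_KO library 1 lies far above the other two at Setd7, Kmt2e and Smarca5, while Kat2b and Kat6a differ little between genotypes.

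By role, the median tested promoter per kb of peak was highest for the DNA methyltransferases (30.2 CPM per kb over 5 peaks) and the TET enzymes (30.0 over 3 peaks of Tet2 and Tet3) and lowest for the bromodomain proteins (20.4 over 10). Between them stood histone methyltransferases at 24.6 (18 peaks), all Smarc symbols at 23.6 (14), Smarca5 of ISWI included, and chromodomain helicases at 23 (8). Deacetylases had 22.9 (10), acetyltransferases 22.2 (7) and demethylases 20.7 CPM per kb (17). The maintenance DNA methyltransferase Dnmt1 held 20.4 ± 2.96 CPM in Stat6_KO, 25.4 ± 7.72 in Il21e_KO and 24.3 ± 1.87 in WT (SD, n = 3 each), or 19.4 CPM per kb over all libraries, while Dnmt3b held 40.3 ± 3.78, 42.9 ± 6.50 and 49.5 ± 1.14 CPM in the same order, or 30.2 per kb. Ezh2, the catalytic subunit of the polycomb methyltransferase complex, held 37.5 ± 1.19 CPM in Stat6_KO, 46.9 ± 12.2 in Il21e_KO and 43.8 ± 8.55 in WT. Per kb, Ezh2 and its paralogue Ezh1 were close, at 24.4 and 23.5 CPM. Of the other methyltransferases, Setd2, which marks transcribed gene bodies, had 26.3 CPM per kb, the trithorax-type enzymes Kmt2a and Kmt2d 25.4 and 24.9, and Setdb1 18.6. The demethylases Kdm1a and Kdm5a had 30.4 and 24.8 CPM per kb, and the acetyltransferase Kat7 18.6. Among class I deacetylases Hdac3 had 29.1 CPM per kb, Hdac1 26.1 and Hdac2 22.4. The class IIa deacetylases spread further, with Hdac7 at 32.3 and Hdac4 at 15.9 CPM per kb. Brd2, a BET protein, had 20.03 CPM per kb. The SWI/SNF ATPase Smarca4 and the core subunits Smarcb1 and Smarcc1 had 18.7, 23.7 and 17.3 CPM per kb. Of the remodellers, Chd7 had 33.9, Chd1 29.0 and the NuRD ATPase Chd4 21.6 CPM per kb.

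Taking each symbol's strongest tested promoter peak, the fewest reads stood at Setd5 (7.90 CPM), Brd1 (8.78), the Y-linked Kdm5d (13.8), Chd2 (13.8), Kat2a (13.9) and Hdac10 (16.2 CPM). Setd5 held 9.09, 10.01 and 7.95 CPM in Stat6_KO, 5.72, 5.04 and 8.32 CPM in Il21e_KO and 6.73, 8.56 and 9.67 CPM in WT, with overlap between all groups. Kdm5d, which also overlapped, held 14.2, 11.2 and 12.2 CPM in Stat6_KO, 10.5, 18.9 and 18.3 CPM in Il21e_KO and 17.7, 8.56 and 12.3 CPM in WT, and every library held reads in Y-linked peaks. Additional starts of Brd2 (6.02 and 6.45 CPM) and Smarca2 (14.8 CPM) were in the same low range. The 6 peaks named first were short, and per kb they had 14.3 (Kdm5d) to 20.8 CPM (Brd1). The 8 promoter peaks below the filter were those of Smarca1 (an ISWI ATPase, 4.18 CPM) and Dnmt3aos (1.03 CPM), plus additional starts of Hdac7 (3 peaks), Kdm2b, Kmt2d and Smarca2.

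No promoter peak carried the name of 8 symbols: Chd3, Chd5, Chd8, Hdac9, Kdm1b, Kdm6b, Setdb2-phf11c and Tet1. For 2 of them the start lay inside an open peak that the table gives to another symbol, since each peak is given to 1 gene. The Kdm1b start lay in the Tpmt promoter peak (24.4 ± 4.6 CPM in Stat6_KO, 34.1 ± 12.6 in Il21e_KO and 28.8 ± 2.16 in WT, SD, n = 3 each), and the Setdb2-phf11c start lay in that of Setdb2. For Kdm6b, which removes the polycomb methyl mark, the nearest peak was an internal one 1558 bp from the start with 49.6 CPM. Tet1 differed from Tet2 and Tet3: the nearest peak was an intergenic one 1122 bp away, at 3.21 CPM and below the filter, although the Tet1 window printed above holds 17 CpG. The peaks nearest to the Chd3, Chd5 and Chd8 starts held 4.02, 1.12 and 1.08 CPM.

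Internal peaks were many and mostly faint. The table places 436 of the 756 in introns, 158 in the 5' untranslated part of the transcript, 130 in coding exons, 19 in the 3' untranslated part and 13 at the transcript end, and of these 130, 55, 29, 1 and 2 were tested. Its 5' untranslated part includes introns before the coding start, so these peaks lie a median of 13942 bp from the TSS. Hdac4, a class IIa deacetylase, had the most listed peaks (58 over a span of 251.6 kb), followed by Chd7 (48), Chd2 (40), Kat2b (28) and Tet3 (28). Long genes held more: internal peak number and transcript span had a Spearman rho of 0.74 over 93 symbols, a description over genes that share the libraries. Per 100 kb, Kmt2d (40.5 internal peaks), Hdac7 (38.6) and Chd2 (33.9) held most after the antisense Dnmt3aos, at 67.8 from 2 peaks over 2.95 kb. Hdac9, with 13 internal peaks, has the longest span plotted. Summed internal CPM and the strongest promoter had a rho of 0.28 over 85 symbols. Among the 15 symbols with 20 or more peaks, Hdac4 and Chd2 had the smallest shares of their CPM in promoter peaks (5.68% and 6.75%) and Kmt2e the largest (57.6%). The Kmt2e share was 50.2% in Stat6_KO, 59.7% in Il21e_KO and 62.4% in WT, as shares of the group means.

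**Figure D2:**
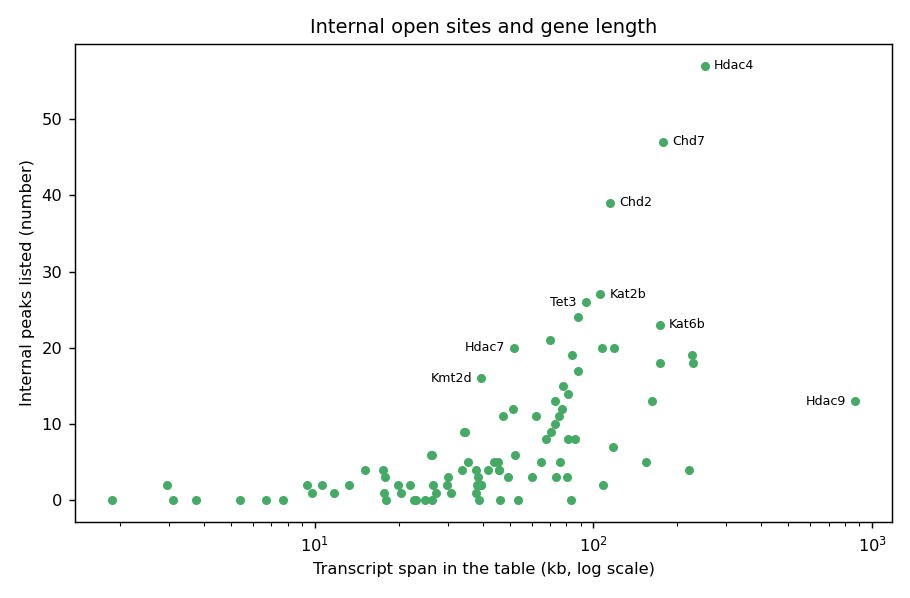
Number of internal peaks listed for each of the 93 chromatin regulator symbols (y axis) against transcript span in kb (x axis, log scale), 1 point per symbol. Hdac4, Chd7 and Chd2 lie at the top, and Hdac9 holds 13 internal peaks over the longest span.

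Some internal peaks held as many reads as the promoters named above, also per kb. An intron 6 peak of Kdm2b, a demethylase that recruits a polycomb complex to CpG-rich DNA, held 71.0, 67.1 and 71.6 CPM in Stat6_KO, 72.4, 76.9 and 69.9 CPM in Il21e_KO and 71.0, 76.3 and 70.3 CPM in WT. It was even across all 9 libraries, Il21e_KO library 1 included, and had 33.9 CPM per kb. In Setd4, a SET-domain protein, a peak in coding exon 11 averaged 65.1 CPM, or 35.0 per kb. The 5' untranslated parts of Chd9 (59.3 CPM, 78854 bp from the listed start), Smarca2 (56.5), Kdm6b (49.6) and Tet3 (48.7) and intron 6 of Setd1b (55.5 CPM) held other strong ones. Dnmt3a had one in coding exon 2, with 53.4, 56.5 and 66.7 CPM in Stat6_KO, 54.3, 44.1 and 52.7 CPM in Il21e_KO and 47.1, 49.0 and 53.5 CPM in WT. Here the Stat6_KO libraries reached higher but overlapped both other genotypes.

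The balance between promoter and internal peaks was compared next. Summed promoter CPM of the set divided by summed internal CPM was 0.613, 0.662 and 0.662 in Stat6_KO, 0.962, 0.651 and 0.656 in Il21e_KO and 0.786, 0.768 and 0.649 in WT. Il21e_KO library 1 alone lay above the WT libraries, and Stat6_KO overlapped WT through WT library 3. The ratio over all genes was 0.821, 0.885 and 0.876 in Stat6_KO, 1.34, 0.869 and 0.879 in Il21e_KO, and 1.02, 0.989 and 0.848 in WT. As a share of all promoter reads, those of the chromatin regulators stayed within 0.889% to 0.932% in the 9 libraries, and their share of internal reads within 1.19% to 1.27%. With 3 libraries a group, a single value cannot reach an exact permutation p below 0.1.

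**Figure D3:**
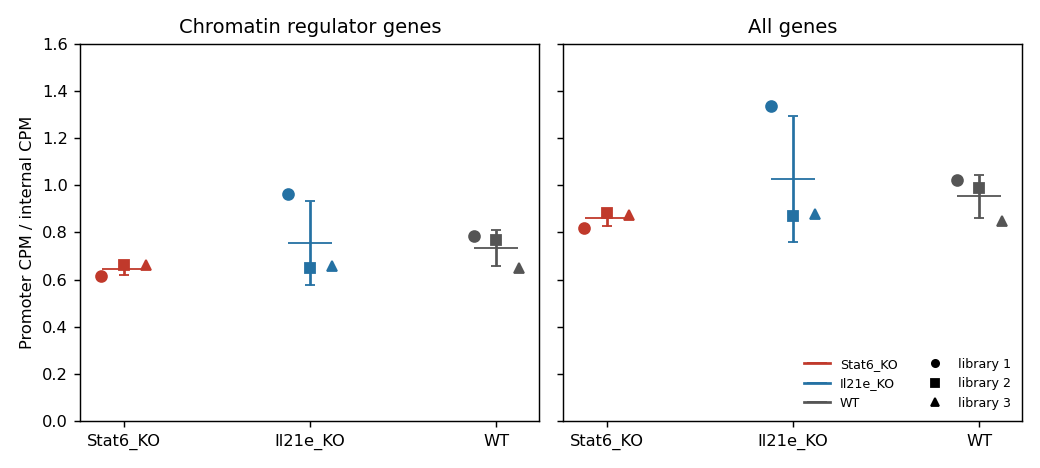
Summed promoter CPM divided by summed internal CPM (y axis) per library for the chromatin regulator genes (left) and for all genes (right), with mean (bar) and SD (whiskers), n = 3 per genotype. Il21e_KO library 1, at 0.962 and 1.34, is the highest in both panels.

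No chromatin regulator peak passed the test between genotypes at 0.05 after adjustment (FDR, false discovery rate). The test was limma-trend on log2(CPM + 1) with Benjamini-Hochberg adjustment over all 48287 tested peaks. Of the 309 tested, 0 passed in Stat6_KO against WT, 0 in Il21e_KO against WT and 0 in Stat6_KO against Il21e_KO. Over all tested peaks, 0.0104%, 0% and 0.0104% passed, which is 5, 0 and 5 peaks, all of them intergenic. The lowest adjusted p among chromatin regulator peaks was 1.00, 1.00 and 0.780. edgeR's quasi-likelihood test, DESeq2 and limma-voom on the recovered reads also called 0 of them in each comparison. At an unadjusted p under 0.05 stood 14 peaks (4.53%) in Stat6_KO against WT, where 3.29% of all tested peaks did, 6 (1.94%) in Il21e_KO against WT, where 3.52% did, and 19 (6.15%) in Stat6_KO against Il21e_KO, where 5.68% did. The libraries of both genotypes did not overlap at 43 peaks (13.9%, against 13.2% of all tested), 21 (6.8% against 7.28%) and 36 (11.7% against 11%). At promoters alone the shares at an unadjusted p under 0.05 were 4.35%, 0% and 3.26% of 92, against 3.11%, 2.44% and 6.59% of all tested promoters. At internal peaks they were 4.61%, 2.76% and 7.37% of 217, against 3.65%, 4% and 5.58% of all tested internal peaks. By direction, 9 internal peaks (4.15%) were lower in Stat6_KO than in Il21e_KO at this limit, against 1.43% of all tested internal peaks. Higher ones were 7 (3.23%, against 4.15%). The shares lie on either side of the background, and their difference from it was not tested. The peaks named next are descriptions of the smallest p-values and not calls. All comparisons with WT use the same WT libraries.

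The shifts of promoters and internal peaks were small and followed those of all genes. The median log2 fold change at promoters was -0.10 in Stat6_KO against WT (-0.08 over all tested promoters), with 27 of 92 positive, and 0.03 at internal peaks (0.03 over all). The promoter median was -0.05 without Stat6_KO library 1, -0.06 without WT library 1 and -0.18 without WT library 3. In Il21e_KO against WT the medians were 0.02 at promoters (0.03 over all) and -0.07 at internal peaks (-0.06 over all). Without Il21e_KO library 1 both changed sign, to -0.09 and 0.03, and so did the medians over all peaks, to -0.07 and 0.03. The promoter median was also -0.05 without WT library 3. In Stat6_KO against Il21e_KO the medians were -0.14 at promoters (-0.12 over all) and 0.09 at internal peaks (0.10 over all), and -0.03 and -0.01 without that library. With TMM scaling, which sets libraries to a common trimmed mean, the internal median in Stat6_KO against WT was -0.01. By role, the promoter medians in Stat6_KO against WT ran from -0.20 for the TET enzymes and -0.19 for the demethylases to 0.02 for the DNA methyltransferases.

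**Figure D4:**
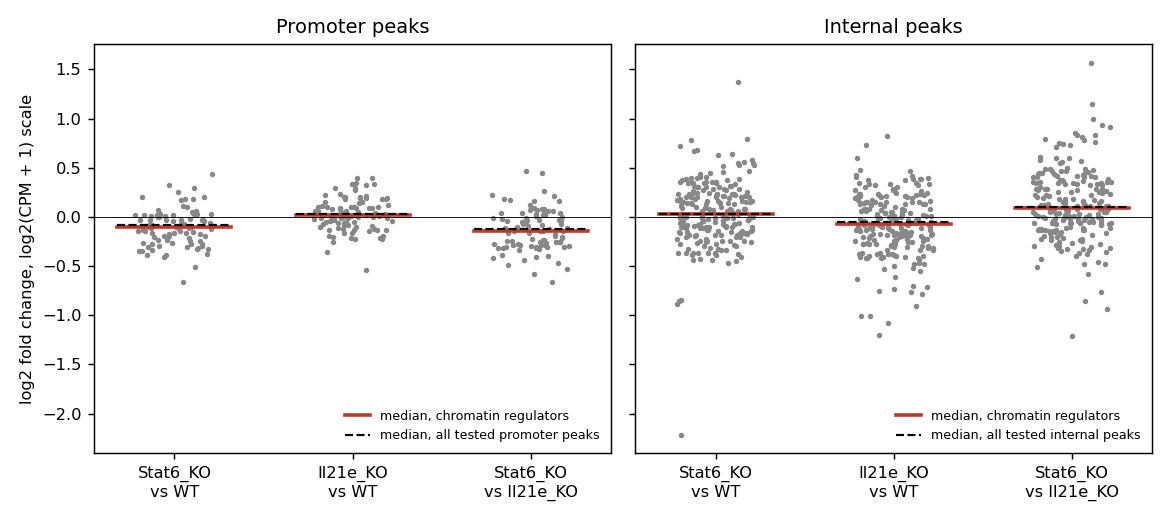
Log2 fold change on the log2(CPM + 1) scale (y axis) of the 92 promoter peaks (left) and 217 internal peaks (right) tested, in the 3 comparisons (x axis), 1 grey point per peak. Solid lines mark the median of these peaks and dashed lines that of all tested peaks of the class, and the lines nearly coincide in each comparison, while the lowest internal point in Stat6_KO against WT is Hdac9 at -2.22.

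In Stat6_KO against WT, the smallest p among promoters belonged to Kdm8, a JmjC-domain protein. It held 17.6, 15.3 and 14.7 CPM in Stat6_KO, against 28.1, 26.5 and 22.6 CPM in WT, and the groups did not overlap (log2 fold change -0.66, SE 0.24, limma unadjusted p = 0.014). Its Il21e_KO libraries held 35.3, 17.0 and 17.2 CPM, the last 2 near the Stat6_KO values. A second Kdm2b promoter held 21.0, 25.3 and 18.3 CPM in Stat6_KO, against 31.2, 31.9 and 29.7 CPM in WT (-0.51, SE 0.20, limma unadjusted p = 0.0216). Hdac7, a deacetylase known for its role in thymocyte selection, held 42.6, 39.4 and 34.3 CPM in Stat6_KO, against 52.6, 47.5 and 46.4 CPM in WT. Its log2 fold change was -0.33 (SE 0.15, limma unadjusted p = 0.0409), and in Il21e_KO it held 41.0, 42.2 and 38.8 CPM, likewise below each WT library. Tet2, whose product oxidises methylated CpG, held 44.9, 41.8 and 40.4 CPM in Stat6_KO, against 53.2, 66.2 and 44.5 CPM in WT, and these groups overlapped (-0.34, SE 0.17). Brd7, a subunit of a SWI/SNF complex, and Setd7 had log2 fold changes of -0.31 (SE 0.15) and -0.32 (SE 0.16). On the other side a second Dnmt3a promoter, at an internal start of the gene, held 25.6, 21.2 and 28.1 CPM in Stat6_KO, 16.2, 18.9 and 18.9 CPM in Il21e_KO and 19.6, 15.6 and 19.3 CPM in WT. All 3 Stat6_KO libraries were above the 6 others (0.44, SE 0.19, limma unadjusted p = 0.0361 against WT), while the main Dnmt3a promoter differed by 0.07. Chd2 (0.33), Kmt2c (0.29), Smarcd3 (0.25), Kdm5c (0.20) and Kat5 (0.19) followed, and in all 5 the groups overlapped.

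Among internal peaks in Stat6_KO against WT, an intron 7 peak of Chd7 had the smallest p. Chd7 encodes a chromodomain remodeller found at enhancers. The peak, at chr4:8739419-8739986, held 8.52, 8.24 and 4.89 CPM in Stat6_KO, 12.4, 18.9 and 10.5 CPM in Il21e_KO and 14.7, 14 and 12.9 CPM in WT. Stat6_KO lay below both other genotypes in every library (-0.89, SE 0.26, limma unadjusted p = 0.0033 against WT). The same gene held a peak with the opposite sign in intron 2 (19.9, 16.5 and 19.0 CPM in Stat6_KO, against 12.2, 14.8 and 12.9 CPM in WT, 0.44, SE 0.20). The Kdm6b peak 1558 bp from the start, at chr11:69223911-69225620, held 38.1, 40.6 and 42.8 CPM in Stat6_KO, 64.8, 42.8 and 51.0 CPM in Il21e_KO and 59.4, 52.9 and 53.5 CPM in WT. Its Stat6_KO libraries were below every WT library (-0.44, SE 0.16, limma unadjusted p = 0.0134). Dnmt3a also had internal peaks of either sign, a lower one in intron 4 (18.6 ± 1.83 CPM in Stat6_KO and 25.7 ± 5.16 in WT, SD, n = 3 each, log2 fold change -0.43) and a higher one in the 5' untranslated part (23.1 ± 3.88 and 17.1 ± 1.42 CPM, 0.40). In Il21e_KO this 5' untranslated peak held 22.6 ± 1.77 CPM (SD, n = 3), likewise above each WT library. An intron 2 peak of Chd2 and an intron 12 peak of Kdm2a were lower, by log2 fold changes of -0.85 and -0.36, with overlapping groups. Higher values stood at an intron 14 peak of Kmt2e (7.96, 6.48 and 7.34 CPM in Stat6_KO, against 4.28, 4.67 and 2.58 CPM in WT, 0.79, SE 0.34) and at an intron 2 peak of Tet1 (15.3, 14.1 and 15.9 CPM, against 11.6, 10.1 and 10.3 CPM, 0.47, SE 0.20). At both of these the 3 Stat6_KO libraries lay above the WT libraries. At the Kmt2e peak no WT library reached the filter's minimum count of 10, so it was tested only through knockout libraries. An intron 4 peak of Tet3 (0.68) and an intron 11 peak of Kdm2b (0.67) overlapped between groups.

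Hdac9, a class IIa deacetylase, had the largest log2 difference among the 309 tested peaks in Stat6_KO against WT. Its 5' untranslated peak at chr12:35591770-35592404, 9364 bp from the listed start, held 4, 0 and 1 reads in Stat6_KO, 0, 11 and 13 reads in Il21e_KO and 8, 11 and 13 reads in WT. Both Stat6_KO and Il21e_KO library 1 were low, and the Stat6_KO libraries were below each WT library. No Stat6_KO library reached the filter's minimum count of 10, so this peak was tested only through Il21e_KO and WT libraries. Its rank, p-values and read ratio carry that selection. The fitted log2 fold change was -2.22 (SE 0.79, limma unadjusted p = 0.0118, adjusted p = 1.00). As a ratio of reads the peak stood at 0.137 in Stat6_KO relative to WT (exact 95% interval 0.0417 to 0.355, counting error only). Without Il21e_KO library 1 in the shared fit the adjusted p was 0.0175, and with library weights 0.04997, the only alternatives in which a chromatin regulator peak passed. Over all 19 alternatives its adjusted p ranged from 0.0175 to 1.00. The peak lies 82.3 kb from an intergenic peak towards Snx13, at chr12:35674659-35675659, which is 1 of the 5 called over the whole table. That peak held 10, 3 and 3 reads in Stat6_KO, 34, 47 and 48 in Il21e_KO and 52, 38 and 44 in WT (-3.05, SE 0.28, limma adjusted p = 6.4e-05). Called intergenic peaks 1030 kb and 1050 kb from the Hdac9 peak, also on chromosome 12, were lower in Stat6_KO as well (-3.24 and -2.92 against WT). The remaining called peaks lay on chromosome 11. The other Hdac9 peak that was tested, in an intron at chr12:34933416-34934257, held 20, 25 and 23 reads in Stat6_KO, 6, 21 and 25 in Il21e_KO and 17, 12 and 22 in WT, and its Stat6_KO values overlapped those of WT. The remaining 11 Hdac9 peaks held 0 to 17 reads a library and were not tested. What the difference at the Hdac9 5' peak shares with those at the called chromosome 12 peaks was not tested. The RefSeq windows of Hdac9 hold 0 and 3 CpG, far below the median of 26.

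**Figure D5:**
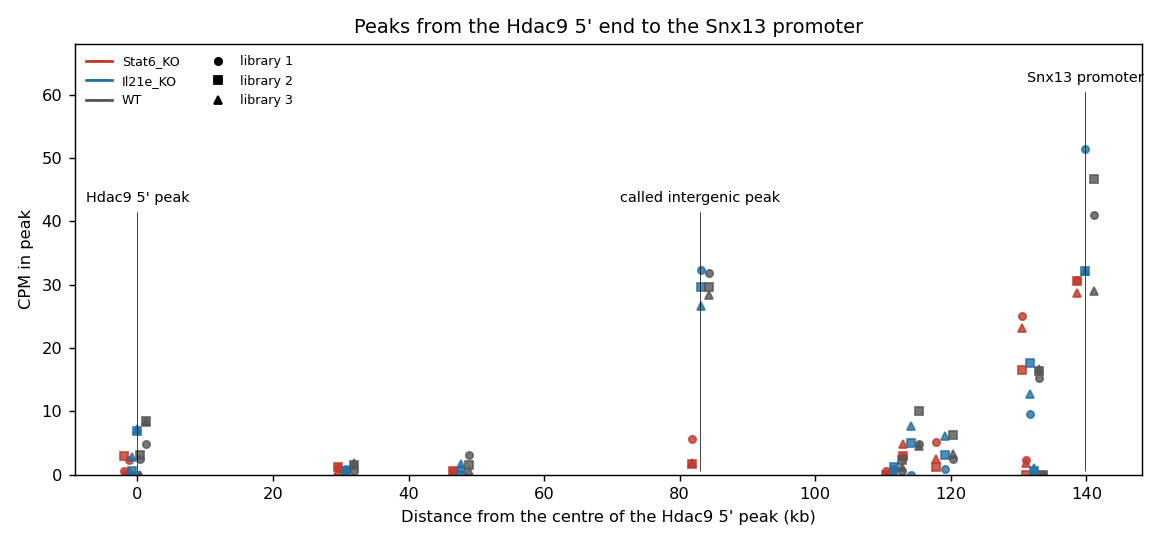
CPM (y axis) in every listed peak by distance in kb from the centre of the Hdac9 5' peak (x axis), 1 point per library, with the genotypes drawn 1.2 kb apart for visibility. Stat6_KO libraries are low at the Hdac9 peak and at the called intergenic peak, while at the Snx13 promoter they hold 28.7 to 30.7 CPM and overlap WT.

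In Il21e_KO against WT, no promoter reached an unadjusted p of 0.05. The smallest p among promoters with higher values belonged to Hdac4, with 31.4, 23.9 and 24.4 CPM in Il21e_KO, against 17.1, 27.2 and 16.8 CPM in WT (0.39, SE 0.21). The groups overlapped through WT library 2. Brd2 (0.39), Brd9 (0.30) and the antisense Chd3os (0.27) followed with overlapping groups. Setdb1, a methyltransferase of silent chromatin, held 21.0, 20.8 and 16.6 CPM in Il21e_KO, against 15.3, 15.6 and 14.2 CPM in WT, without overlap (0.35, SE 0.20). Lower values stood at Hdac7 (-0.26), Tet3 (-0.23), a second Brd2 start (-0.54), Dnmt3b (-0.21), Setd5 (-0.35) and Brd3 (-0.19), and Hdac7 was the only one of these 6 whose groups did not overlap. Among internal peaks the smallest p stood at coding exon 7 of Kdm1a, a demethylase of the CoREST complex, with 3.81, 10.1 and 8.32 CPM in Il21e_KO, against 13.5, 20.2 and 12.3 CPM in WT (-1.01, SE 0.33, limma unadjusted p = 0.00626). Peaks in intron 2 of Hdac4 (-0.71), coding exon 17 of Kdm2b (-0.91) and intron 12 of Kat6b (-1.08) were lower at an unadjusted p under 0.05. In each of these, Il21e_KO library 1 was the lowest of the 9 libraries, and without it the Hdac4, Kdm2b and Kat6b values were -0.26, -0.30 and -0.62. At the Kdm1a peak library 1 was likewise the lowest Il21e_KO library, and the value ranged from -1.25 to -0.65 over the alternatives. An intron 13 peak of Smarca4 held 22.9, 25.8 and 26.1 CPM in Il21e_KO, against 33.0, 31.1 and 31.0 CPM in WT, without overlap (-0.34, SE 0.16). Higher values stood at the Kmt2e intron 14 peak, at 6.67, 8.82 and 5.55 CPM in Il21e_KO, against the same low WT values (0.73, SE 0.34), and at the Smarca2 5' untranslated peak, with 79.1, 59.9 and 57.1 CPM in Il21e_KO, against 46.5, 52.9 and 54.8 CPM in WT (0.33, SE 0.15). The Kmt2e intron 14 peak was thus higher in both knockouts than in the shared WT libraries. So was the Dnmt3a 5' untranslated peak (0.38 in Il21e_KO against WT, SE 0.19). At the Kmt2e peak WT held 7, 6 and 4 reads, under the filter's minimum count of 10. That peak was therefore tested only through knockout libraries, and its rank carries that selection.

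In Stat6_KO against Il21e_KO, Brd2 had the smallest p among promoters. This BET protein binds acetylated histones. Its promoter held 14.8, 15.3 and 19.0 CPM in Stat6_KO, 33.4, 24.6 and 22.2 CPM in Il21e_KO and 26.9, 20.2 and 14.2 CPM in WT. Stat6_KO and Il21e_KO did not overlap, while WT overlapped both (-0.66, SE 0.23, limma unadjusted p = 0.011). Kdm4a (-0.49) and Kdm4b (-0.58), related demethylases, had lower values in Stat6_KO with overlapping groups, and Il21e_KO library 1 was the highest at both. Without it they were -0.19 and -0.22. Kat8 (-0.42), an acetyltransferase of the male-specific lethal complex, did not overlap, and the second Kdm2b promoter (-0.41) and Smarcad1 (-0.33) did. Higher in Stat6_KO were the second Dnmt3a promoter (0.45, SE 0.19), Setd5 (0.46), the main Dnmt3a promoter (0.16) and Chd2 (0.27). Internal peaks with lower values in Stat6_KO included the Chd7 intron 7 peak (-0.86, SE 0.26), an intron 2 peak of Chd2 (9.09, 8.24 and 6.12 CPM in Stat6_KO, against 26.7, 11.3 and 12.8 CPM in Il21e_KO, -0.94, SE 0.31) and the Kdm6b peak (-0.36, SE 0.16). Hdac5 coding exon 5 (-0.46), the Dnmt3a intron 4 peak (-0.43) and Setd1b intron 6 (-0.40) completed the 6 with the smallest p. Higher values stood at the 5' untranslated part of Hdac5, a class IIa deacetylase, with 10.8, 11.2 and 9.79 CPM in Stat6_KO, against 3.81, 6.30 and 8.32 CPM in Il21e_KO (0.75, SE 0.28). A 3' untranslated peak of Chd6 held 11.9, 11.2 and 12.2 CPM in Stat6_KO, against 0, 7.56 and 8.32 CPM in Il21e_KO (1.57, SE 0.59). Its size rests on the 0 of Il21e_KO library 1: over the alternatives it ranged from 0.52 to 2.23. Peaks in Dnmt3a intron 3 (0.83), the 5' untranslated parts of Smarca4 (0.92) and Chd7 (0.47) and intron 1 of Kmt2a (0.74) also had higher values in Stat6_KO, with overlapping groups at Smarca4 and Kmt2a. The Kmt2a value rests on Il21e_KO library 1, which held 3.81 CPM against 16.4 and 12.8 CPM in the other Il21e_KO libraries, and it ranged from 0.18 to 1.10 over the alternatives.

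Other chromatin genes, a list of 87 symbols outside the rule such as further Polycomb and co-repressor subunits, were described in the same way. Of these, 74 held 666 peaks, of which 266 were tested, and 0 passed in any of the 3 comparisons (limma). At an unadjusted p under 0.05, 6 of the 266 were higher and 2 lower in Stat6_KO against WT, where 1.68% and 1.62% of all tested peaks were. In Il21e_KO against WT 7 were higher and 5 lower (1.1% and 2.41% of all tested), and in Stat6_KO against Il21e_KO 13 were higher and 6 lower (3.31% and 2.38%). Their promoter medians were -0.13, -0.01 and -0.10 and their internal medians 0.05, -0.09 and 0.12 in these comparisons.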

How the data were processed

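ATAC-seq libraries of naive CD4+ T cells were analysed from 1 deposited table. The submitters' processing notes name Bowtie 1.3.0, MACS2 2.0, HOMER and mm9, with no role or order. Roles, peak merging and filters are not given in the sources used here. The authors deposited CPM: each column sums to 1000000 over the listed peaks, so a library with more reads at promoters has lower CPM elsewhere. The headers of the gene columns are shifted by 1 and were read by content. Within 0.01 read, 100% of values were whole multiples of 1 step per library, taken as 1 read. Coordinates are those of the table, and sequences are from RefSeq (GRCm38.p6); the builds were not mixed.

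The filterByExpr function of edgeR 4.0.16 (minimum count 10, total 15) on the recovered reads left 48287 peaks and set aside 67440. The filter did not ask for reads in every genotype, so a peak low in 1 genotype could be tested through the others. limma-trend (limma 3.58.1, R 4.3.3) was fitted to log2(CPM + 1), a scale that understates changes of low peaks, with 9 libraries in 1 fit, 1 coefficient per genotype, 2-sided tests and Benjamini-Hochberg adjustment over all tested peaks. The fit was tested on simulated data. Alternatives were edgeR's quasi-likelihood test, DESeq2 1.42.0 and limma-voom on recovered reads, TMM scaling, pseudocounts of 0.25 and 5, no filter, 2 groups only, library (array) weights, a replicate block and each library left out. Read intervals are exact binomial (Clopper-Pearson) and cover counting error only, as PCR copies are not independent molecules. A count of 0 allows up to 3 reads.

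The members and lists were chosen with earlier results of these data known. Named peaks are, per comparison, the 6 promoter and 6 internal peaks with the smallest unadjusted p in each direction, the 12 genes with the strongest promoter peak and the 6 with the weakest tested one, the 6 genes with most peaks, the 8 strongest internal peaks and a fixed set of promoters. Dnmt3aos, Kmt2d, Hdac7 and Chd2 are named for peak density after their values were seen, as are the other Hdac9 peaks. Of the genes this rule names, 1 is not reported here.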

Additional observations from a re-analysis of the deposited data

How the results depend on the processing

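Median log2 fold changes changed sign under several alternatives. The SD of the library medians (log2 scale, n = 3 each) was uneven between genotypes. At internal peaks it was 0.23 in Il21e_KO, 0.014 in Stat6_KO and 0.013 in WT. At promoters it was 0.23, 0.059 and 0.10 in the same order, and Il21e_KO replicate 1 lay apart in both classes. In Il21e_KO against WT the promoter median (0.02) was -0.09 with array weights, -0.01 with limma-voom, -0.09 without Il21e_KO replicate 1 and -0.05 without WT replicate 3, and the internal median (-0.07) was 0.02 with DESeq2, 0.01 with array weights and 0.03 without Il21e_KO replicate 1. The internal median was -0.01 with TMM in Stat6_KO against WT (0.03) and -0.01 without Il21e_KO replicate 1 in Stat6_KO against Il21e_KO (0.09). Of the values recomputed for 72 named peak and comparison pairs under 19 alternatives, none changed sign. Of these, 1366 kept their side of the adjusted threshold of 0.05, and 2, both for the Hdac9 5' peak in Stat6_KO against WT, passed it. The pairs were picked for small p in these data, and their lowest adjusted p in the main fit was 0.780, so keeping that side shows little. Crossings of an unadjusted 0.05 were not counted. For the Hdac9 5' peak the limma unadjusted p was 0.0118, and 0.0567 without WT replicate 2. The number of chromatin regulator peaks past an FDR of 0.05 in that comparison was 0, and 1 with array weights. Leaving out each library in turn gave 0 to 1, with 1 only without Il21e_KO replicate 1. Il21e_KO against WT and Stat6_KO against Il21e_KO gave 0 chromatin regulator peaks under every alternative run. Counts over all tested peaks moved more. In Stat6_KO against WT, 5 peaks passed, against 11 with edgeR, 3 with limma-voom, 38 with 2 groups only and 108 with array weights. Leaving out 1 library gave 3 to 61, with 61 without Il21e_KO replicate 1, 9 without WT replicate 1 and 3 without WT replicate 2 or 3. In Il21e_KO against WT, 0 passed with limma, edgeR, DESeq2 and voom (1698 at an unadjusted p under 0.05), 1 with no filter and 4 with array weights, and 0 to 2 with 1 library left out, 2 being without Il21e_KO replicate 1. In Stat6_KO against Il21e_KO, 5 passed, against 8 with a pseudocount of 5, 16 with no filter, 14 with edgeR, 3 with limma-voom and 36 with array weights, and 4 to 17 with 1 library left out, 17 being without Il21e_KO replicate 1 and 9 without WT replicate 1. The cause was not tested.

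Deviations of same-numbered libraries correlated at -0.19 to 0.25 in 9 pairs, and those of differently numbered libraries at -0.30 to 0.24 in 18 pairs. Replicate numbers were therefore not used as pairs, and whether same-numbered libraries shared handling was not tested. With a replicate block 4, 0 and 5 peaks passed over the whole table in the 3 comparisons, and 0 chromatin regulator peaks. Read counts of library pairs without Il21e_KO library 1 differed by a chi-square per degree of freedom of 0.733 to 1.05 within a genotype. Between genotypes it was 0.778 to 1.14. Counting error alone gives values near 1, and the lowest value, 0.733 over 65372 peaks, lies below that. Whether the recovered reads act as independent counts was not tested. This measure therefore cannot tell separate samples from technical repeats. No pair of libraries was counted as 1. With 1 read worth up to 0.953 CPM, peaks near 5 CPM rest on a few reads a library.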
